A study of Mus musculus with 22 samples.

Results

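The genes of 6 enzymes of cell surface sugars, Fut4, Fut9, B4galt1, B3galt5, Galnt6 and Chst13, were followed in mouse primordial germ cells (PGCs) as these were cultured towards embryonic germ cells (EGCs). The 6 genes were taken by their names in the array files, and 14 of 41174 probes and 6 of 28104 genes on the array belong to them. They had been picked because they build SSEA-1, the antigen on which the cells were sorted, or related sugars that changed with time in culture. The values that chose them are those of the time course, so the course is described here without a test.

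Expression was measured on 22 one-colour Agilent arrays, with 1 array for each group and no replicated group. The time course holds uncultured PGCs from embryos at E11.5, PGCs after 1 day with bFGF, and PGCs after 2, 3 and 6 days with bFGF, 2i and A83-01. It ends with a day 10 culture whose label names no additions, and an EGC line and an embryonic stem cell (ESC) line stand beside it. The term 2i stands for PD325901 at 1 µM, which inhibits MEK, together with CHIR99021 at 3 µM, which inhibits GSK3, and A83-01 at 250 nM inhibits activin and TGF-beta receptors. Further PGC cultures were stopped at day 2 with bFGF and 2i, A83-01 and 4-hydroxytamoxifen (4OHT), with bFGF and 4OHT, A83-01, CHIR99021 or PD325901 alone, or with bFGF only. The 4OHT was given at 100 nM to activate AKT, and the allele that answers to it is not named in the labels. EBRTcH3 ESCs were measured with forced Prdm14, Vasa, Nanos2, Nanos3, Dnd, Blimp-1 or GFP and as the parental line. The Blimp-1 and GFP constructs were driven by the EF1a promoter and collected at day 2. By the labels the PGC cultures, the ESC line and the EGC line were SSEA-1 positive cells and the construct samples GFP positive cells, while the parental EBRTcH3 label names no sort. All cultures used Knockout DMEM with serum replacement and LIF.

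SSEA-1 is the Lewis x sugar, a fucose on an N-acetyllactosamine unit of galactose and N-acetylglucosamine. B4galt1 encodes a galactosyltransferase that makes N-acetyllactosamine, and Fut4 and Fut9 encode fucosyltransferases that can finish Lewis x. Fut9 is known as the enzyme that mouse early embryos and PGCs need for SSEA-1. B3galt5 encodes another galactosyltransferase, which makes type 1 chains and, in human, the globo-series sugar of SSEA-3. Galnt6 encodes an enzyme that starts O-linked sugars on proteins, and Chst13 one that puts sulfate on the N-acetylgalactosamine of chondroitin. PGCs carry SSEA-1 on their surface until they enter later germ cell development, and mouse ESCs and EGCs carry it too.

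Each gene is followed through the 60-base probe with its highest mean level, and the first 30 bases of these probes are shown because every value below rests on them. Positions are on mm9, the build of the array design, and all bases are printed in lower case. No mm9 annotation was used here, so exon, intron or UTR was not assigned.
Fut4, chr9:14553224-14553283, minus strand: atgttaatgagatattggccaggcgtctta
Fut9, chr4:25545580-25545639, minus strand: caatgtaaatttattgcactgaatttggga
B4galt1, chr4:40751739-40751798, minus strand: tgtgatactgtgtttgtatgttgatatccc
B3galt5, chr16:96541339-96541398, plus strand: cactgaatggagtttggaattgtcatttgc
Galnt6, chr15:100522618-100522677, minus strand: aggtcacctggcaagatgtttagcagttcc
Chst13, chr6:90258780-90258839, minus strand: tggtcacactcattccgactgggtagggta
Fut9 has 5 further probes, B4galt1 has 2 and Galnt6 has 1, and Fut4, B3galt5 and Chst13 have 1 probe each in all.

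The level of a probe is its log2 intensity minus the log2 of the 75th percentile of its array, so a level of 0 is the intensity of that percentile. Levels compare arrays for 1 probe and do not rank genes against each other. B4galt1 was well above background, by the scanner's own call, on all 22 arrays, Fut9 on 20, Galnt6 on 19, Fut4 on 17, and B3galt5 and Chst13 on 11 each. The 75th percentile lay at intensities of 120 to 750, and 44.3 to 64.7 percent of probes were well above background. The dimmest array was that of 2i, A83-01 and 4OHT. The arrays lay on 10 slides. All 10 PGC markers were well above background on all 6 arrays of the course, where their summed intensity was 84.5 to 158 times the 75th percentile. The same held for the EGC, ESC and parental EBRTcH3 lines, at 85.5 to 157, so these markers do not tell PGCs from the lines. The 9 pluripotency markers matched by name were well above background on all 3 lines, with sums of 171 to 482. They were also well above background in the day 2 cultures outside the course, with sums of 26.7 to 102. A check of the forced genes went against most labels: of the 5 genes with a named probe, Nanos3 was highest on the array labelled with it, at 2.67 against at most -0.33 elsewhere in EBRTcH3. Ddx4 (Vasa) ranked 8, Prdm1 (Blimp-1) 7 and Dnd1 2 of the 8 arrays on theirs, and Nanos2 was not well above background on its own. Whether the constructs hold the bases these probes read is not given in the sources used here, and the arrays are called by their labels below.

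In the time course Galnt6 was higher at every step, B3galt5 was lower at every step, and Chst13 was lower at each step up to day 6, after which it was too dim to follow. Both fucosyltransferases dipped; Fut4 came back near its starting level, and Fut9 came back in part. Galnt6, the starter of O-linked sugars, was at -5.75 in uncultured PGCs, where it was not well above background. Its levels were -3.50 at day 1, -3.19 at day 2, -2.20 at day 3, -0.19 at day 6 and 0.96 at day 10. The day 10 level lies between those of the EGC line, 0.82, and the ESC line, 1.28. Day 10 was at least 24.9-fold above uncultured PGCs, where a side too dim to call was set to the faintest called probe of that array, as for every "at least" below. Within 1 slide, the day 10 array was 22-fold above the day 1 array. The second Galnt6 probe, at position 2595 of the transcript, was higher in 4 of the 5 steps and at least 3.91-fold above PGCs at day 10.

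B3galt5 was at -1.09 in uncultured PGCs, -2.10 at day 1, -3.33 at day 2, -3.91 at day 3, -5.00 at day 6 and -6.75 at day 10. Chst13 was at -1.49, -3.06, -4.07, -4.36, -5.73 and -7.15 on the same arrays. Both genes were thus highest before culture, and B3galt5 was no longer well above background at day 10 and Chst13 at days 6 and 10. At day 10 B3galt5 was at least 16.9-fold and Chst13 at least 12.8-fold below uncultured PGCs. Against the day 1 array of the same slide, day 10 was at least 8.41-fold lower for B3galt5 and at least 4.32-fold lower for Chst13. Neither gene was well above background in the EGC line, at -6.41 and -7.60, or in the ESC line, at -6.21 and -7.12. With normexp background correction the differences between day 10 and PGCs were 2.69 for Galnt6, -2.08 for B3galt5 and -1.84 for Chst13 on the log2 scale, which is less than the bounds above.

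Since B3galt5 and Chst13 were lower together from PGCs to day 6, the sequences at their starts are shown, from 250 bases before to 50 bases after each start, from RefSeq on GRCm38.p6. The table gives B3galt5 3 starts and Chst13 1.
B3galt5 start 1, chr16:96235551-96235850, plus strand: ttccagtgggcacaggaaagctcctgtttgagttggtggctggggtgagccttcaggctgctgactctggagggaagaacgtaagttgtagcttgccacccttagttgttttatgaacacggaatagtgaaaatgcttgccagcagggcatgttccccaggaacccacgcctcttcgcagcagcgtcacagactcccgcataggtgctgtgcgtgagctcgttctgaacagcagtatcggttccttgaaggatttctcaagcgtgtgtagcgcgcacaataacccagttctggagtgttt
B3galt5 start 2, chr16:96273263-96273562, plus strand: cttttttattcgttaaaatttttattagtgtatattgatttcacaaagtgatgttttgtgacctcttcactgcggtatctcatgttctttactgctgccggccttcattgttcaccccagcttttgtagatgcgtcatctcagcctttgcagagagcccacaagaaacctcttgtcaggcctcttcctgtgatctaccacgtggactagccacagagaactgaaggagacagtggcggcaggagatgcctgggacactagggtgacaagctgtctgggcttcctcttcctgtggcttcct
B3galt5 start 3, chr16:96280782-96281081, plus strand: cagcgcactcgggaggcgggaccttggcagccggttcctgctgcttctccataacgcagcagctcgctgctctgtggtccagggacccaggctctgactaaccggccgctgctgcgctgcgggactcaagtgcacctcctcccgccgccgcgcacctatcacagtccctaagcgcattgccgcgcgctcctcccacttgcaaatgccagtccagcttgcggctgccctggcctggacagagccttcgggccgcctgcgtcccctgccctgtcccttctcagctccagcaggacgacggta
Chst13, chr6:90325136-90325435, minus strand: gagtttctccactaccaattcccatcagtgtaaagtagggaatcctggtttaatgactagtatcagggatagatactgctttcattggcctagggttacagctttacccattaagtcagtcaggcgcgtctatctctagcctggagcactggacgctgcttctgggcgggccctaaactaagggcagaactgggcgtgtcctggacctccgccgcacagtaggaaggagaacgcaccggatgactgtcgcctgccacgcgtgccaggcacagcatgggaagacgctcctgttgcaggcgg
These windows hold 12, 6, 24 and 14 CpG pairs in the order printed, against a median of 7 over 32851 mouse windows of this length. On both strands 3 motifs were searched: GCCNNNGGC, as read by AP-2 factors, CTTTGAT, as read by TCF factors, and TCACACC, as read by T-box factors. None of the 4 windows printed holds any of the motifs, and so no base is in capitals. Among the windows of the 5 genes in the table, those of Fut4 and B4galt1 hold 1 GCCNNNGGC each, a motif found in 16.6 percent of all windows. CTTTGAT and TCACACC, found in 3.73 and 3.98 percent of all windows, are in none of them.

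The fucosyltransferases had their own shapes. Fut4 was at -0.32 in uncultured PGCs, -2.02 at day 1, -3.89 at day 2, -3.48 at day 3, -0.66 at day 6 and -0.70 at day 10. Its 7.08-fold higher level at day 6 than at day 3 was seen between arrays of 1 slide. Fut9 was at -1.06, -2.51, -3.89, -4.00, -4.17 and -2.67 on the same arrays. Fut9 thus stayed low through day 6, when Fut4 was already back near its level in PGCs, and was 2.84-fold higher at day 10 than at day 6. At day 10 it was still 3.04-fold below uncultured PGCs. The 4 main-transcript probes that were well above background in PGCs were highest there, and at day 10 they were 2.28-fold to 5.11-fold lower. The main-transcript probe at position 5762 was well above background at day 1 alone in the course. In the EGC line Fut4 was at -2.42 and Fut9 at -1.56, and in the ESC line they were at -2.11 and -2.40. By the probes followed, both fucosyltransferases were well above background on all arrays of the course and in the EGC and ESC lines. At day 3 no other Fut9 probe was well above background. On both day 2 arrays with 4OHT, also of SSEA-1 positive cells, the followed Fut9 probe was not well above background. These arrays were dim. Their faintest called probes lay at -3.83 with 4OHT and -2.60 with 2i, A83-01 and 4OHT, against -5.70 to -4.93 on the other day 2 arrays. The Fut9 probe at position 4646 was well above background on the array of bFGF and 4OHT.

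B4galt1, which makes the acceptor sugar, was well above background throughout and moved least. It was at 4.33 in uncultured PGCs, 3.85 at day 1, 4.79 at day 2, 4.08 at day 3, 3.74 at day 6 and 2.97 at day 10. The EGC line, at 3.08, and the ESC line, at 3.29, lay close to day 10. Day 10 was 2.58-fold below uncultured PGCs.

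**Figure D1:**
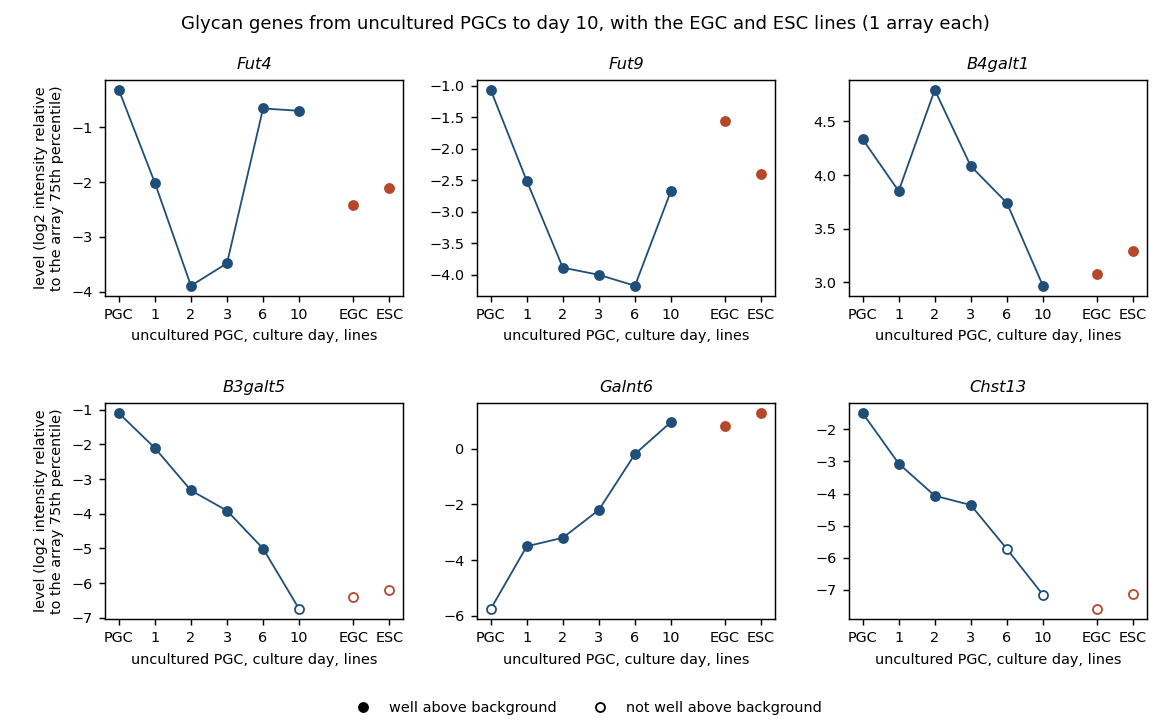
Levels of the 6 genes on the arrays of uncultured PGCs and of culture days 1 to 10 (blue, joined) and of the EGC and ESC lines (orange), as log2 intensity relative to the 75th percentile of the array. Each point is 1 array, open points were not well above background, and axes differ between genes. Galnt6 goes up from -5.75 to 0.96 while B3galt5 and Chst13 go down to -6.75 and -7.15.

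Between the ends of the course differences of this size were common: 43.2 percent of 17491 genes well above background on at least 1 of these arrays were at least 2-fold apart, 17.6 percent higher and 25.7 percent lower at day 10. Of the 6 genes, 5 were at least 2-fold apart, and since they were chosen on this course their count says nothing further. Markers of other cells differed along the course as well. The summed intensity of 12 fibroblast markers was 9.86 in uncultured PGCs, 96.8 at day 1, 323 at day 2, 147 at day 3, 81.4 at day 6 and 54.2 at day 10, in units of the 75th percentile. Blood markers summed to 50.5 in uncultured PGCs and to 0.66 to 3.51 in culture, and gonadal markers to 11.1 and 3.01 to 5.85. In such bulk samples fewer cells of a type and less RNA per cell cannot be told apart, and the part of these cells in the course was not tested.

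The same genes were then compared between the 3 lines (EGC, ESC and parental EBRTcH3) and the 6 day 2 PGC cultures outside the course, with limma over 20467 genes. Of all genes, 2317 (11.3 percent) passed an adjusted p of 0.05, 972 (4.75 percent) higher and 1345 (6.57 percent) lower in the lines. Fut9 rose and B4galt1 fell in the lines. B3galt5 and Chst13 passed as well, lower in the lines, but they entered the test through the day 2 cultures, the group in which alone they were well above background. With slide as a random block none of these calls was kept (limma adjusted p = 0.154 for Fut9, 0.155 for B4galt1, 0.0800 for B3galt5 and 0.157 for Chst13), nor with normexp background correction (0.776, 0.468, 0.712 and 0.561 in the same order). These 9 arrays lie outside the course on which the genes were chosen, but earlier results of these data were known at that choice. The day 2 array with bFGF only also shares its slide with arrays of the course.

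Fut9 was at -1.56 in the EGC line, -2.40 in the ESC line and -1.41 in parental EBRTcH3. In the day 2 cultures it was at -3.29 with 2i, A83-01 and 4OHT, -4.16 with 4OHT, -3.49 with A83-01, -2.85 with CHIR99021, -4.05 with PD325901 and -3.73 with bFGF only. By this probe neither 4OHT array was well above background, while the probe at position 4646 was on the array of bFGF and 4OHT, at -3.64. The mean was -1.79 ± 0.54 (SD, n = 3) in the lines and -3.59 ± 0.49 (SD, n = 6) in the day 2 cultures, a 3.49-fold difference (1.80 on the log2 scale, SE 0.38, limma adjusted p = 0.0164). All 5 main-transcript probes were higher in the lines, by 0.69 to 1.96. With every probe as its own feature, those at positions 2830, 4646 and 7217 of the transcript passed (limma adjusted p = 0.0172, 0.0361 and 0.0481) and those at 1433 and 5762 did not (0.160 and 0.319). A sixth probe, on a separate clone at chr4:25725469-25725528, was well above background on 1 of 22 arrays.

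B3galt5 was at -6.41 in the EGC line, -6.21 in the ESC line and -5.73 in parental EBRTcH3, none of them well above background. It was well above background in all 6 day 2 cultures, at -2.42 with 2i, A83-01 and 4OHT, -3.50 with 4OHT, -3.74 with A83-01, -2.83 with CHIR99021, -4.28 with PD325901 and -3.69 with bFGF only. The lines were at least 2.46-fold lower for B3galt5 (means -6.12 ± 0.35 and -3.41 ± 0.67, limma adjusted p = 0.00448). Chst13 was at -7.60 in the EGC line, -7.12 in the ESC line and -5.56 in parental EBRTcH3, again none of them well above background. In the day 2 cultures it spread widely, from -4.89 with PD325901 to -0.77 with 2i, A83-01 and 4OHT, and was well above background in all 6. The lines were at least 3.44-fold lower for Chst13 (means -6.76 ± 1.07 and -2.93 ± 1.5, limma adjusted p = 0.0213). Both genes entered the test only through the day 2 cultures, so their p-values are no support for a difference.

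B4galt1 was at 3.08 in the EGC line, 3.29 in the ESC line and 3.36 in parental EBRTcH3, and between 3.95 and 4.91 in the day 2 cultures. The mean was 2.23-fold lower in the lines (3.24 ± 0.15 and 4.40 ± 0.37, limma adjusted p = 0.0376). The second probe near the same end of the transcript was 0.95 lower (limma adjusted p = 0.0646), whereas the probe at position 243 was 0.19 higher (limma adjusted p = 0.814). The B4galt1 call passed in 1 of 9 fits that left out 1 array.

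Galnt6 did not pass, and the lines differed among themselves. It was at 0.82 in the EGC line and 1.28 in the ESC line, but at -3.90 and not well above background in parental EBRTcH3, against -4.30 to -2.49 in the day 2 cultures. The difference was 2.45 (SE 1.00, limma adjusted p = 0.158), and 4.10 without parental EBRTcH3 (limma adjusted p = 0.0026). Fut4 had means of -2.97 ± 1.24 in the lines and -2.50 ± 1.5 in the day 2 cultures (difference -0.47, SE 0.89, limma adjusted p = 0.804). The sign of the Fut4 difference turned without parental EBRTcH3 (0.24).

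**Figure D2:**
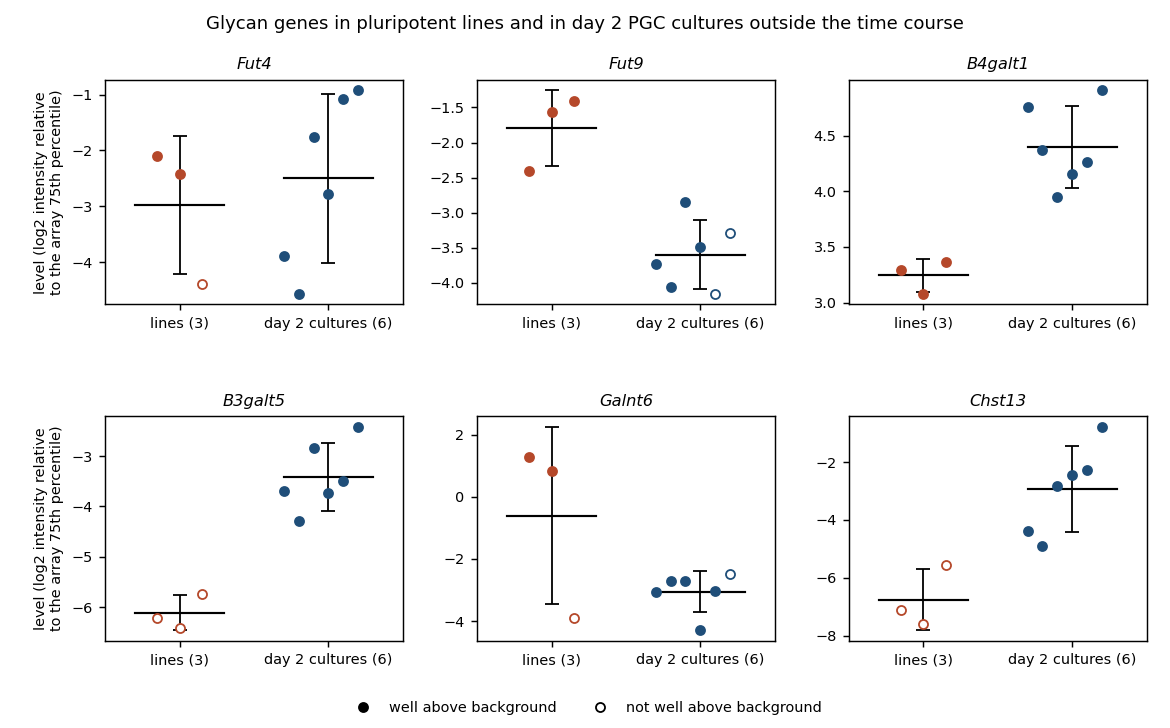
Levels of the 6 genes in the 3 lines (orange) and in the 6 day 2 cultures outside the time course (blue), as log2 intensity relative to the 75th percentile of the array. Points are single arrays, open points were not well above background, and bars give the mean and SD. Parental EBRTcH3, at -3.90, lies far from the other lines for Galnt6.

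No slide held both a line and a day 2 culture, so slide could enter only as a random block. Of the fits that left out 1 array, Fut9 failed without the EGC line (limma adjusted p = 0.0641) and Chst13 without the EGC or the ESC line (0.0876 and 0.0728). B3galt5 passed in all 9, which does not undo its entry into the test through the day 2 cultures. Fibroblast markers summed to 4.44 to 12.5 in the lines and 7.73 to 294 in the day 2 cultures. The lowest day 2 sums were those of the array of 2i, A83-01 and 4OHT, 7.73, and of the 4OHT array, 11.5. The part of these markers was not tested.

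At day 2, additive terms for the 4 additions over 7 arrays left 2 residual degrees of freedom, and no term had a gene past the threshold (0 of 19127 genes, 0 percent, by limma). At an unadjusted p of 0.05, there were 624 genes for PD325901, 909 for CHIR99021, 713 for A83-01 and 8914 for 4OHT, of which the first 3 counts are no more than such a threshold lets through without any effect. Fut4 and Chst13 varied most among the 6 genes. Fut4 was at -0.92 with 2i, A83-01 and 4OHT, -3.89 with 2i and A83-01, -1.09 with 4OHT, -2.78 with A83-01, -1.76 with CHIR99021, -4.57 with PD325901 and -3.88 with bFGF only. Both 4OHT arrays were the highest, and the PD325901 array was the lowest. The 4OHT term for Fut4 was 2.38 (SE 0.45, limma adjusted p = 0.0526), beside a median term of 0.57 over all genes. The PD325901 term was -1.56 (SE 0.47, limma adjusted p = 1.00) and the CHIR99021 term 1.25 (SE 0.47, limma adjusted p = 0.901). Both rest on single arrays: the PD325901 term was -3.23 without the PD325901 array (limma adjusted p = 0.0182) and -0.64 without the CHIR99021 or the A83-01 array. The CHIR99021 term was 2.17 without the PD325901 or the A83-01 array (limma adjusted p = 0.0260 and 0.0294) and -0.43 without its own.

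Chst13 was at -0.77 with 2i, A83-01 and 4OHT, -4.07 with 2i and A83-01, -2.29 with 4OHT, -2.45 with A83-01, -2.81 with CHIR99021, -4.89 with PD325901 and -4.37 with bFGF only. Its order resembled that of Fut4, with both 4OHT arrays at the top. The 4OHT term was 2.12 (SE 0.55, limma adjusted p = 0.0609), the PD325901 term -1.27 and the A83-01 term 1.17, both with an adjusted p of 1.00. The PD325901 term was -3.17 without its own array (limma adjusted p = 0.0274) and -0.22 without the CHIR99021 or the A83-01 array. The A83-01 term was 2.22 without the PD325901 or the CHIR99021 array (limma adjusted p = 0.0307 and 0.0298) and -0.73 without its own. The 4OHT terms of both genes passed in other settings: with every probe as its own feature for Fut4 (limma adjusted p = 0.0488), and for both when dim genes were all kept (0.00660 and 0.0170). In these settings 3532 probes and 15783 genes passed for 4OHT, with 28104 genes on the array. Leaving out 1 array gave adjusted p-values of 1.83e-05 to 0.509 for Fut4 and 5.83e-05 to 0.518 for Chst13, the highest without the array of 2i, A83-01 and 4OHT. Both 4OHT arrays lay alone on 1 slide and were dim, with 75th percentiles of 242 and 120, so 4OHT and slide cannot be told apart.

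The other genes moved less at day 2. B3galt5 had its largest term with CHIR99021, 1.02 (SE 0.30, limma adjusted p = 0.901), at -2.83 against -3.69 with bFGF only. Galnt6 had its largest with A83-01, -1.0 (SE 0.29, limma adjusted p = 1.00), at -4.30 against -3.08. The largest term of Fut9 was 0.70 with CHIR99021 (limma adjusted p = 0.901) and that of B4galt1 0.36 with PD325901 (limma adjusted p = 1.00).

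**Figure D3:**
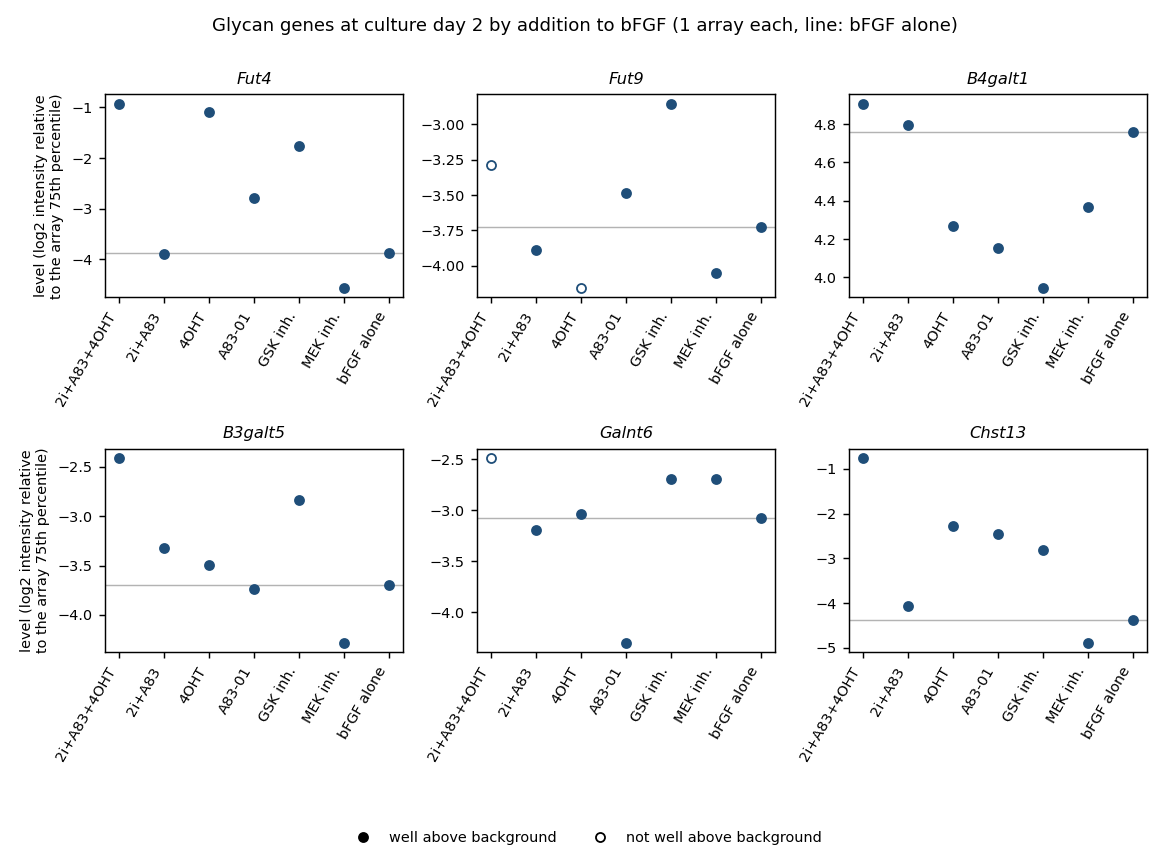
Levels of the 6 genes on the 7 day 2 arrays by what was added to bFGF, as log2 intensity relative to the 75th percentile of the array. Each point is 1 array, open points were not well above background, and the grey line marks bFGF alone. Fut4 and Chst13 are highest where 4OHT was added, at -0.92 and -0.77 with 2i, A83-01 and 4OHT.

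In EBRTcH3 ESCs a forced gene was compared with the arrays that shared its slide, by a fit over the 8 arrays that held slide fixed. The slide of Nanos2, Nanos3 and Dnd held no parental or GFP array, so these were compared with each other only. Of 19274 to 19292 genes none passed for Prdm14, Vasa, Nanos2, Nanos3 or Blimp-1 (0 percent by limma), and 2 of 19291 passed for Dnd (0.0104 percent), neither of them among the 6. At an unadjusted p of 0.05 the counts were 1197 for Prdm14, 530 for Vasa, 561 for Nanos2, 1753 for Nanos3, 435 for Dnd and 934 for Blimp-1. Those for Vasa, Nanos2, Dnd and Blimp-1 are no more than such a threshold lets through without any effect. Fut9 differed most on the array labelled Nanos3. It was at -3.50 there, against -1.83 to -0.59 on the other construct arrays and -1.41 in the parental line. The difference from the arrays labelled Nanos2 and Dnd on its slide was -2.84 (SE 0.38, limma adjusted p = 0.193). Those arrays, at -0.59 and -0.72, were the highest of all 22 for Fut9. The 4 Fut9 probes that were well above background on that array were all lower there, with differences of -2.84 to -2.28. Pluripotency markers summed to 175 on that array and to 284 to 485 on the other 7, and their part was not tested.

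Fut4 was well above background on 3 of the 8 EBRTcH3 arrays, at -1.30 with Nanos3, -2.30 with Blimp-1 and -4.47 with Dnd. The Blimp-1 array was at least 5.72-fold above the GFP array of its slide, where Fut4 was at -6.66 (difference 4.36, limma adjusted p = 0.765). The array labelled Nanos3 was 3.00 above those labelled Nanos2 and Dnd on its slide (limma adjusted p = 0.625). Galnt6 was at 0.38 with Prdm14, at -3.90 in the parental line of the same slide, and between -3.55 and -1.13 elsewhere. The Prdm14 array was at least 14.5-fold above the parental array (term 3.67, SE 1.01, limma adjusted p = 0.643). By the Galnt6 probe at position 2595 it was at least 2.83-fold above, at -1.98, and the array labelled Dnd was the highest, at 0.51. Chst13 was well above background on the array labelled Prdm14 alone, at -3.73, against -6.86 to -3.84 on the others. B3galt5 was not well above background on any of the 8 and was not tested, and B4galt1 stayed between 2.27 and 3.36.

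**Figure D4:**
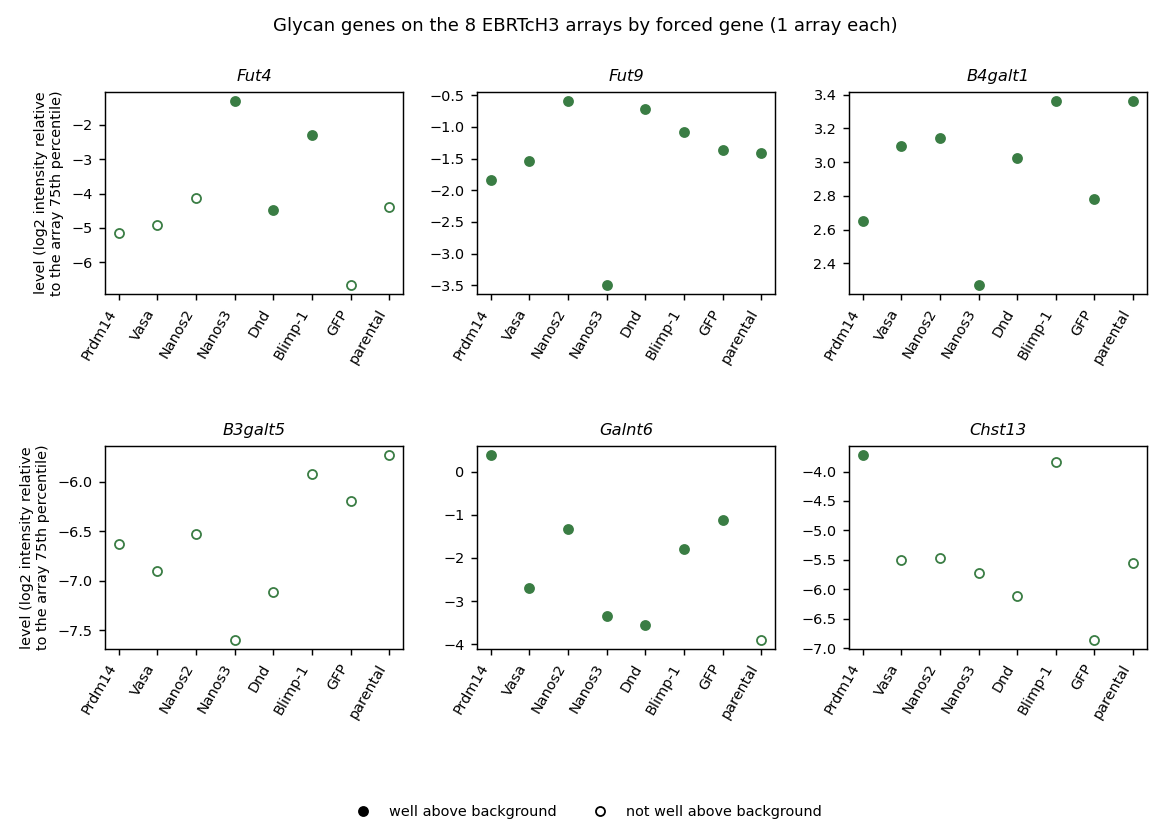
Levels of the 6 genes on the 8 EBRTcH3 arrays by the gene on the label, as log2 intensity relative to the 75th percentile of the array. Each point is 1 array and open points were not well above background. Fut9 is lowest with Nanos3, at -3.50, Galnt6 is highest with Prdm14 by the probe shown, at 0.38, and B3galt5 is not well above background on any array.

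To place the 6 genes among their kind, 7 lists of sugar-building genes were read on the same arrays. Of 116 listed genes 110 were on the array and 103 were tested between the lines and the day 2 cultures. There 18 of the 103 passed the threshold, 7 higher and 11 lower, beside 2317 of 20467 genes (11.3 percent). The median difference was -0.37 against 0.04 over all genes tested. The 18 include Fut9, B4galt1, B3galt5 and Chst13, which were chosen with earlier results of these data known. B3galt5, Chst13 and St8sia3 also entered the test through 1 group alone, so the count is not read as an excess. With slide as a random block or with normexp 4 passed, and 10 passed without the EGC line. Among 11 fucosyltransferases 1 rose, Fut9, and 1 fell, Fut10 (-2.74, limma adjusted p = 0.0170), which was named after its value was seen. None of the 8 tested genes of GDP-fucose supply and fucosidases passed. Beside the 6 genes, some were named for their large fitted differences. St8sia3, a sialyltransferase, had a difference of 4.17 (SE 0.68, limma adjusted p = 0.00514) but was not well above background in any of the 6 day 2 cultures. It entered the test only through the lines, so its size is not measured and its p-value is no support for a difference. B3gnt9, named for N-acetylglucosamine transfer, had a difference of -3.59 (limma adjusted p = 0.0178). St3gal1, which caps O-linked sugars with sialic acid, had a difference of -3.23 (limma adjusted p = 0.00454). Galnt4, which starts O-linked sugars like Galnt6, had a difference of -2.75 (limma adjusted p = 0.000971). It and Galnt14, of the same family (-2.38), were the 2 of 21 genes of O-linked sugar starts and cores that passed, and both fell.

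Between the ends of the course, 14 of 94 listed genes were at least 2-fold higher and 30 at least 2-fold lower at day 10, with a median of -0.37 against -0.30 over all genes. Beside the 6 genes, the largest difference was that of Galnt14, at -2.95 at day 10 and 3.28 in uncultured PGCs. Gcnt1, which builds core branches on O-linked sugars, was at -1.29 at day 10 and 2.12 in PGCs. B3gnt8 and Galnt18 were not well above background at day 10, at -5.66 and -6.69, and stood at -1.35 and -1.98 in PGCs. In the list of O-linked sugar starts and cores, 4 of 17 genes were higher, namely Galnt6, Galnt10, Galnt16 and Galnt17, and 7 were lower, Galnt14 and Galnt18 among them. Galnt10, Galnt16 and Galnt17 were named after their values were seen. At day 2 the listed genes beside the 6 with the largest terms were Galnt13 (3.08), Csgalnact1 (-2.67), B3gnt9 (-2.62) and St6gal2 (2.59) with 4OHT, St8sia6 (-2.43), Galnt3 (-1.76), St3gal6 (-1.54) and Gcnt1 (-1.51) with PD325901. With CHIR99021 they were St3gal6 (1.54), Gcnt1 (1.36), B3gnt5 (1.18) and Galnt3 (1.17), and with A83-01 Galnt18 (1.39), Csgalnact1 (1.17) and Chst10 (-1.12). None of these terms passed (limma adjusted p of 0.0526 or more). On the construct arrays the largest listed difference was that of Chsy3 with Blimp-1 (4.73, limma adjusted p = 0.166).

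Between the EGC and the ESC line none of the 4 genes above background in both differed by 2-fold. Fut9 was 0.84 higher in the EGC line, and Fut4, B4galt1 and Galnt6 were 0.32, 0.22 and 0.46 lower. B3galt5 and Chst13 were not well above background in either. Over all genes 18.9 percent of 18243 differed at least 2-fold between the lines, 11.8 percent higher and 7.1 percent lower in the EGC line. Of 96 listed genes 10 were at least 2-fold higher and 7 at least 2-fold lower in the EGC line. Fut10, well above background in both, was at -3.74 in the EGC line and -1.39 in the ESC line. Each line is 1 array, so these differences have no test.

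Over the 22 arrays, which share groups, slides and the marker differences above, B4galt1 and B3galt5 had a Pearson correlation of 0.86 and B3galt5 and Chst13 one of 0.80. Galnt6 ran against Chst13 with -0.62, and Fut4 against Fut9 with -0.31. Among 13261 named genes well above background on at least 11 arrays, the closest to B3galt5 were Anks4b (0.97) and Sostdc1 (0.96), and to Chst13 Slc23a3 (0.95), S100a16 (0.91) and Tmed6 (0.90). Closest to Galnt6 were Zfp809 (0.90), Smtnl1 (0.89) and Mapt (0.88), and to Fut9 Sp2 (0.90), Fuz (0.89) and Notum (0.88). B4galt1 lay nearest to Particl (0.93), B4gat1 (0.92) and Lemd2 (0.92). Fut4 had the weakest neighbours, Zfp429 (0.86), Pde10a (0.84) and Dnajb3 (0.82). These values describe the 22 arrays and carry no test.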

How the data were processed

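Per the file headers, the deposited files hold spot intensities of 1-colour Agilent arrays (mm9 design) read with Agilent Feature Extraction 10.7.3.1, and the authors' processed signal in them is already background-subtracted. Control spots and outlier spots were left out, repeat spots averaged, and log2 intensity set relative to the 75th percentile of each array. Probes were renamed through RefSeq by accession (26918), symbol (5082) or synonym (817), and 8357 kept the file's name. Of several probes of a gene, the one brightest on average across the 22 arrays stood for it, and a gene was tested if well above background on at least 1 array of the fit. Fits used limma 3.58.1 in R 4.3.3, two-sided, with Benjamini-Hochberg adjustment and a threshold of 0.05, and were tested on simulated data. Each group has 1 array, so p-values measure the spread between these different cultures or lines, and the number of arrays limits the precision. The genes and lists were chosen with earlier results of these data known. Named beside the 6 genes were up to 4 listed genes per comparison with the largest difference of at least 2-fold and, over the 22 arrays, the 3 genes with the highest correlation, of which 1 is not reported here. Alternatives were normexp (offset 50), quantile and median scaling, the authors' value table, the filters on dim probes, every probe as a feature, the slide terms and leaving out arrays.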

Additional observations from a re-analysis of the deposited data

Results flagged for a closer look

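Fut4 had differences of opposite sign, both close to 0, under the same addition at day 2. Adding 2i and A83-01 to bFGF changed its log2 level by 0.1627 where 4OHT was present and by -0.0091 where it was not. Each value is a difference of 2 arrays, and the difference between them was not tested.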

How the results depend on the processing

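Between the lines and the day 2 cultures, genes past the threshold numbered 706 with normexp, 1525 with no filter on dim probes, 577 with slide as a random block, 3747 with GFP added and, in a setting chosen after seeing the data, 3891 with both 4OHT arrays left out. Fut4 was 0.27 in that last setting. B4galt1 also lost its call with no filter on dim probes (limma adjusted p = 0.0898). Leaving out 1 array gave 1300 to 3198 genes and -0.91 to 0.24 for Fut4. At day 2, normexp gave 24 genes for PD325901, 15 for CHIR99021, 19 for A83-01 and 8664 for 4OHT, and slide in place of 4OHT gave 624, 415 and 499 for the 3 inhibitors. For 4OHT the count was 3532 with every probe as a feature, 15783 with no filter and 6090 with only genes above background on every array. Signs turned with normexp for PD325901 (Fut9 0.032, B3galt5 0.034), A83-01 (B4galt1 -0.18) and 4OHT (Fut9 1.37, B4galt1 -0.99), and with quantile scaling for 4OHT (B4galt1 -0.52). Leaving out 1 array gave 0 to 1649 genes for PD325901, 0 to 1160 for CHIR99021, 0 to 1091 for A83-01 and 0 to 9566 for 4OHT. The terms then ran from -0.24 to 1.45 (B4galt1), -3.23 to -0.64 (Fut4) and -3.17 to -0.22 (Chst13) for PD325901; for CHIR99021 from -0.43 to 2.17 (Fut4), -0.075 to 1.13 (Fut9), -0.66 to 1.03 (B4galt1) and -1.10 to 1.86 (Chst13); for A83-01 from -1.45 to 1.14 (Fut4), -0.71 to 0.50 (Fut9), -0.45 to 1.24 (B4galt1) and -0.73 to 2.22 (Chst13). For 4OHT they ran from -0.67 to 0.48 (Fut9) and -0.19 to 0.34 (B4galt1). For the constructs, quantile scaling gave 61 genes for Prdm14, 23 for Vasa, 57 for Nanos2, 16 for Nanos3, 105 for Dnd and 178 for Blimp-1. Without the slide block there were 3 for Prdm14, 31 for Nanos2, 55 for Nanos3, 68 for Dnd and 165 for Blimp-1. Normexp gave 1 for Prdm14, 2 for Nanos3 and 1 for Dnd, and Dnd had 4 with no filter and 0 with every probe as a feature or only genes above background on every array. Signs turned for Chst13 with normexp (Prdm14 -0.17, Nanos3 -0.49) and, without the slide block, for Chst13 (Nanos3 -0.43, Nanos2 -0.13), Fut9 (Vasa -0.046), Fut4 (Nanos2 0.039) and Galnt6 (Blimp-1 0.42). The cause of these changes was not tested. The authors' value table and median centring changed no call or sign. Dim probes limit B3galt5 and Chst13 in the lines, whose folds are bounds. No paired analysis was possible because each group has 1 array.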

Other observations

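Some probes of 1 gene did not move together. On the array labelled Dnd, the Galnt6 probe at position 2595 was at 0.51 and the one at position 3362 at -3.55, and over the 22 arrays they had a Pearson correlation of 0.66. The B4galt1 probe at position 243 had correlations of -0.39 and -0.28 with the other B4galt1 probes, which had 0.95 with each other.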
